A study of Mus musculus with 2 samples.

Results

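The cell cycle genes described here are 36 of the 27998 genes counted in immune cells of mouse TSA tumours, namely 16 genes used in S phase (DNA synthesis) and 20 genes used in G2 and mitosis (G2/M). They were taken by symbol from a list of named genes, without a rule on measured values, and all 36 were found in both libraries. RNA was counted in CD45+ cells (leukocytes) isolated with magnetic beads from tumours grown under the skin from TSA cells, which derive from a mouse mammary adenocarcinoma. Both groups were Balb/c mice bearing such tumours. The untreated group received no NAM and the NAM group received nicotinamide, a form of vitamin B3, at 0.5% in the drinking water for 10 days, with no age or sex in the labels. Each group was 1 library from the pooled tumours of 3 mice, so that no difference has a replicate check and the batch of a library and NAM cannot be told apart. No test was made, and all intervals are 95% intervals that cover counting error only.

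Cells that divide copy their genome in S phase and separate the copies in mitosis, and both steps are carried by genes that are transcribed in waves. S-phase genes open replication origins, unwind DNA, supply deoxynucleotides and handle histone mRNA, and are known targets of E2F factors. G2/M genes drive entry into mitosis, condense chromosomes and build the spindle, and many of their promoters carry CCAAT boxes and a CHR element, which the DREAM and MuvB complexes bind.

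The promoters of the members were read from RefSeq on GRCm38.p6, as windows from 250 bases before to 50 bases after a start site. Of the 36 members, 29 had an entry, 14 S and 15 G2/M members, and Mcm4, Gins2, Ccna2, Pbk, Aurkb, Tpx2 and Stmn1 had none. The windows were searched on both strands for 3 words. They were the CCAAT box, the core of the CHR element, TTTGAA, and an E2F-like word, TTTNGCGC. TTTGAA was found in 10 of 15 G2/M members (66.7%) and in 1 of 14 S members (Mcm2), against 20.2% of all 27025 genes in the table. CCAAT was found in 13 of 15 G2/M and 9 of 14 S members, against 41.1% of all genes. TTTNGCGC was found in 4 of 14 S members (Mcm3, Mcm5, Mcm6 and Mcm7) and in 1 of 15 G2/M members (Cdk1), against 1.57% of all genes. Matches overlapped in 5 members, namely Mcm7 (TTTNGCGC with CCAAT), Cdca8 (TTTGAA with CCAAT), Mcm5 and Mcm6 (TTTNGCGC on both strands) and Ube2c (CCAAT on both strands). A match describes these letters only and says nothing of binding. The 250 bases before the start are shown for 5 members that hold the words of their set, 5′ to 3′ on the gene's strand, with each match on either strand in capitals. The upstream stretches of the helicase genes Mcm5 (chr8:75109259-75109508, plus strand) and Mcm6 (chr1:128359706-128359955, minus strand) hold 2 and 3 matches to the E2F-like word, both strands counted, without TTTGAA:
Mcm5: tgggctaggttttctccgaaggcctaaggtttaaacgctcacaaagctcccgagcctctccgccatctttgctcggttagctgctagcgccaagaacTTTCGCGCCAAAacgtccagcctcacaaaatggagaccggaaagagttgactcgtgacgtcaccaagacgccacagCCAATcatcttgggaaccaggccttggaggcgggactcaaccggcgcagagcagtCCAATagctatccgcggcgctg
Mcm6: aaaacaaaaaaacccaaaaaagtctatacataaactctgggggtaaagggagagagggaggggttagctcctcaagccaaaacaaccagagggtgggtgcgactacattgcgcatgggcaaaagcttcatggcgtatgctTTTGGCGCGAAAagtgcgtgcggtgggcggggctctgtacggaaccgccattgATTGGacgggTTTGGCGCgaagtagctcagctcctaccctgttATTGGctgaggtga
Those of Top2a (chr11:99024190-99024439, minus strand), the topoisomerase that untangles chromosomes, and of Ube2c (chr2:164769679-164769928, plus strand), a ubiquitin-conjugating enzyme of mitotic exit, hold 6 CCAAT words each, with 2 and 1 TTTGAA words:
Top2a: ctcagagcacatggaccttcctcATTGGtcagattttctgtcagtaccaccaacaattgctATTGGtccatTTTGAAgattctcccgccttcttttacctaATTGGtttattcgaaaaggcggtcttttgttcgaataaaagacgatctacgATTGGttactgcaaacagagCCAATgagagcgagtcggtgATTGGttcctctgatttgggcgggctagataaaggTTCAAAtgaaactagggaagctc
Ube2c: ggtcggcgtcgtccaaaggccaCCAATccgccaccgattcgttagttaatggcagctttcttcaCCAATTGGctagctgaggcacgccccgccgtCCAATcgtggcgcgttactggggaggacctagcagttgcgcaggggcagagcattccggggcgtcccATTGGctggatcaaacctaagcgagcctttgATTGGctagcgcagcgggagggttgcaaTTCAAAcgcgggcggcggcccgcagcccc
Cdk1 (chr10:69352913-69353162, minus strand), the kinase that starts mitosis, holds all 3 kinds of word:
Cdk1: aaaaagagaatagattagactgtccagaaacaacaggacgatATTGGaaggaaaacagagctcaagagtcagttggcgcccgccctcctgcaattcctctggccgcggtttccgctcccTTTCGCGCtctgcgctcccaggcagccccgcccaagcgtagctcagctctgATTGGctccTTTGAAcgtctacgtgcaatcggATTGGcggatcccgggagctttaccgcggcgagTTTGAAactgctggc

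RNA molecules were counted as UMIs (unique molecular identifiers). There were 2922 untreated cells with 29161823 UMIs and 3276 NAM cells with 32090120 UMIs, at medians of 9056 and 9128 UMIs per cell. Of the 6198 cells, 11 barcodes occurred in both libraries. Cells were sorted into 5 gates by UMIs of C1qa (macrophage), Ly6c2 (monocyte), Xcr1 (dendritic), Cd3e (T) and Ncr1 (NK), none of them a member. The gates held 5000 cells (80.7%): 1935 untreated and 2111 NAM macrophages, 184 and 203 monocytes, 28 and 34 dendritic cells, 164 and 233 T cells, and 71 and 37 NK cells. Gates were checked against other markers. The summed level of each gate's own list was highest in that gate in both libraries, for example 29676 and 29451 CPM (UMIs per 1000000 UMIs of the gate) of 8 macrophage markers in the macrophage gate. Markers of other gates were present too. The macrophage list stood at 5784 and 6095 CPM in the monocyte gate, above that gate's own list (4652 and 5559 CPM), NK markers at 1308 and 1691 CPM in the T gate, and T markers at 933 and 1523 CPM and cDC1 markers at 1487 and 1388 CPM in the NK gate. Of the 8 cDC1 markers, 4 had a UMI in the NK gate of the untreated library and 2 in that of the NAM library. Clec9a, Flt3, Cd24a and Batf3 had no UMI there in either library. The part of markers of other gates in the results was not tested. Haemoglobin RNA (Hba-a1 and Hbb-bs) was higher in the NAM library, at 4398 against 18.9 CPM in monocytes, 3500 against 14.9 CPM in T cells and 306 against 15.3 CPM in macrophages. The part of haemoglobin RNA in the results was not tested beyond leaving out the 5 NAM cells of these 3 gates in which it exceeded 1% of UMIs, which moved no value out of its interval.

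The summed level of the members differed between gates, and the order of the gates differed in part between the libraries. The S members summed to 1290 CPM (interval 1219 to 1365) in untreated and 1438 CPM (1376 to 1502) in NAM T cells and to 1017 (930 to 1109) and 1383 CPM (1225 to 1556) in NK cells. Macrophages held 627 CPM (617 to 639) and 552 CPM (542 to 562), dendritic cells 547 (480 to 620) and 821 CPM (741 to 906), and monocytes 407 (372 to 444) and 315 CPM (284 to 349). The S sum was thus highest in the lymphocyte gates and lowest in monocytes, whose intervals overlapped those of no other gate, while the intervals of untreated macrophages and dendritic cells overlapped.

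**Figure D1:**
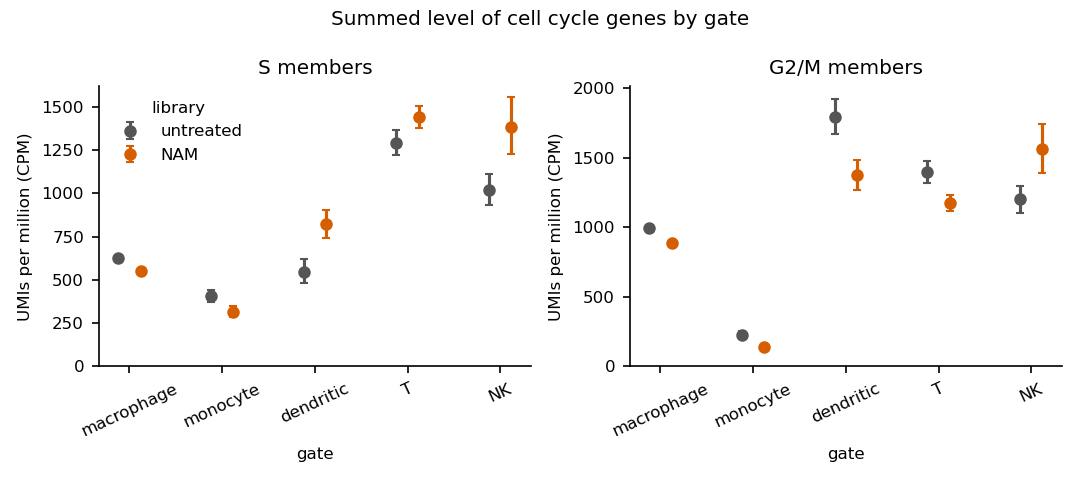
Summed level of the 16 S members (left) and the 20 G2/M members (right) in CPM, by gate (x axis) and library (colour). Points are the summed CPM of 1 library and bars the 95% Poisson interval. Monocytes are lowest in both panels, and the libraries lie in the opposite order in T cells in the left and right panels.

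The G2/M members took another order. They summed to 1795 CPM (1673 to 1924) in untreated and 1372 CPM (1270 to 1481) in NAM dendritic cells, to 1395 (1320 to 1472) and 1175 CPM (1119 to 1234) in T cells, and to 1199 (1105 to 1299) and 1558 CPM (1390 to 1742) in NK cells. Macrophages held 992 CPM (979 to 1006) and 889 CPM (877 to 902), and monocytes 225 (199 to 253) and 140 CPM (120 to 164). Monocytes were again lowest. The G2/M UMIs per S UMI were 1.58 and 1.61 in macrophages, 1.08 and 0.817 in T cells, 1.18 and 1.13 in NK cells, 3.28 and 1.67 in dendritic cells and 0.553 and 0.445 in monocytes. Macrophages thus carried more G2/M than S RNA and monocytes the reverse. In monocytes, the single gene Slbp held 173 of the 494 untreated and 147 of the 364 NAM S UMIs. C1qa and Ly6c2 double cells (74 and 98), outside the 5 gates, lay nearer to monocytes for G2/M members, at 334 and 332 CPM.

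These sums came from a minority of cells. In macrophages, the median cell had 2 S UMIs in both libraries and 1 G2/M UMI, while the highest cell had 116 and 101 S UMIs and 249 and 232 G2/M UMIs. The 10% of macrophages with most G2/M UMIs held 78.1% (untreated) and 80.7% (NAM) of them, and the 10% with most S UMIs held 59.0% and 56.1% of those. In the smaller gates, 5 cells weighed heavily. The 5 cells with most G2/M UMIs held 36.4% and 28.7% of the sum in T cells, 60.4% and 90.7% in NK cells, 76.6% and 72.8% in dendritic cells and 72.2% and 50.6% in monocytes, against 5.72% and 5.41% in macrophages. Ratios without these 5 cells are given as a description of how few cells carry a sum. The cells were chosen by the UMIs compared, and 5 cells are not the same part of both libraries, so that such a ratio moves by construction and is no estimate of the rest.

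Shares of cells were therefore counted as well. Each cell was thinned to 3000 UMIs, and a cell was taken as past the S cut with 3 or more UMIs from at least 2 S members, and as past the G2/M cut likewise with G2/M members. Such a cut marks a range of RNA counts, not a phase. The S cut was passed by 17.4% of untreated (15.8 to 19.2) and 15.2% of NAM macrophages (13.7 to 16.8), by 35.4% (28.1 to 43.2) and 40.3% (34.0 to 46.9) of T cells, by 32.4% (21.8 to 44.5) and 43.2% (27.1 to 60.5) of NK cells, by 25% (10.7 to 44.9) and 26.5% (12.9 to 44.4) of dendritic cells and by 5.43% (2.64 to 9.77) and 5.42% (2.74 to 9.49) of monocytes. The intervals of T cells and macrophages did not overlap in either library, nor did those of macrophages and monocytes. Unthinned, the S shares were 45.8% and 45.9% in macrophages, with a median of 9729 and 9742 UMIs per cell, and 50.6% and 54.1% in T cells, with medians of 4690 and 4480.

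The G2/M cut was passed by 16.6% (15.0 to 18.4) and 14.6% (13.1 to 16.2) of macrophages, 18.9% (13.2 to 25.7) and 16.7% (12.2 to 22.2) of T cells, 16.9% (9.05 to 27.7) and 10.8% (3.03 to 25.4) of NK cells, 25% (10.7 to 44.9) and 32.4% (17.4 to 50.5) of dendritic cells, and 1.63% (0.338 to 4.69) and 0.985% (0.120 to 3.51) of monocytes. Macrophages and T cells, which differed in S share, overlapped in G2/M share. Unthinned, the G2/M shares were 30.1% and 27.6% in macrophages and 22.0% and 21.9% in T cells. No gate lacks dividing cells for certain and free RNA in droplets was not measured, so that no gate serves as a background for it. Monocytes, the lowest gate, had medians of 5757 and 5006 UMIs per cell. Of thinned macrophages, 104 untreated and 110 NAM cells lay at exactly 3 S UMIs and 218 and 264 at 2 UMIs, next to the cut, and for G2/M members 64 and 55 lay at 3 and 120 and 112 at 2.

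**Figure D2:**
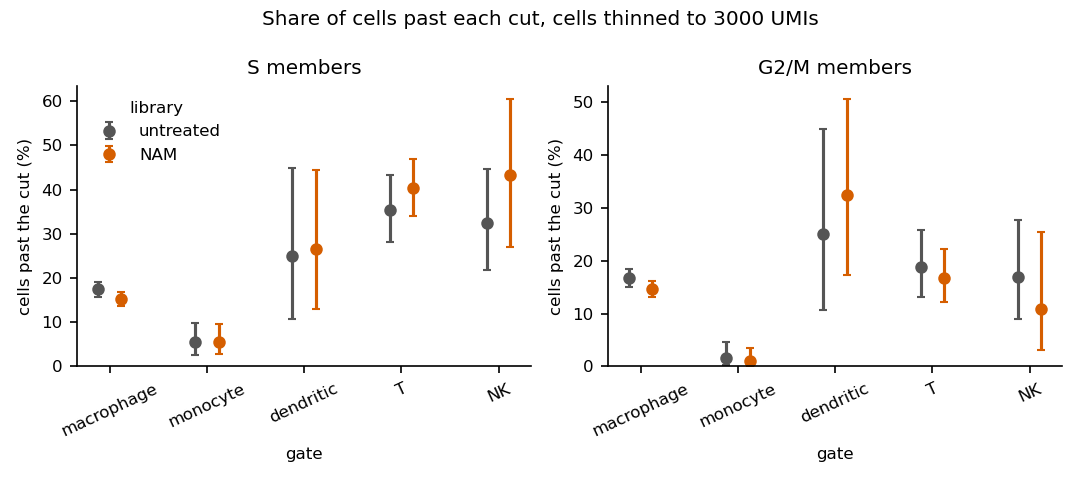
Share of cells past the S cut (left) and past the G2/M cut (right), in percent of the cells of a gate, by gate (x axis) and library (colour), after thinning each cell to 3000 UMIs. Bars are exact 95% binomial intervals. The bars of the 2 libraries overlap in every gate, and the bars of T cells and macrophages are apart in the left panel and overlap in the right.

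The overlap of both cuts differed between gates. Of macrophages past the G2/M cut, 55.6% (untreated) and 52.3% (NAM) were also past the S cut, against 87.1% and 89.7% of such T cells. In macrophages, 158 untreated cells were past the S cut only, 179 past both and 143 past the G2/M cut only (NAM: 159, 161 and 147). In T cells the G2/M cut alone was passed by 4 cells in each library. Past the S cut, the G2/M members stood at 2422 and 2378 CPM in macrophages, against 591 and 539 CPM in macrophages not past it. Macrophages past either cut had a median of 12418 and 12451 UMIs and 3057 and 3086 genes, against 9199 and 9278 UMIs and 2444 and 2422 genes in macrophages past neither. The deeper cells were thus those past a cut, although the cuts were applied at equal depth.

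Macrophages were also sorted by the other 35 members with the same cuts, and the level of the member left out was then read in each class. Of the 16 S members, 14 were highest in cells past both cuts in both libraries, and Mcm2 and Ung, in 1 library each, were highest in cells past the S cut only. The replicative helicase subunit Mcm6 stood at 124 CPM in untreated cells past the S cut only, 141 past both, 27.6 past the G2/M cut only and 14.3 past neither (NAM: 118, 127, 17.8 and 16.8). Mcm6 was thus nearly as high in cells past the S cut only as in cells past both, while Mcm5 differed more (89.9 against 139 CPM; NAM 62.2 against 116). Rrm2, the cycling subunit of ribonucleotide reductase, stood at 22.3, 238, 35.4 and 3.53 CPM (NAM: 15.5, 258, 22.3 and 2.91). It was over 10 times higher in cells past both cuts than in cells past the S cut only, and thymidylate synthase Tyms (40.3 against 183 CPM; NAM 38.6 against 171) and thymidine kinase Tk1 (79.9 against 334; NAM 74.8 against 341) followed it. Slbp, which binds the stem-loop of histone mRNA, was the least restricted S member, with 51.5% and 58.9% of its UMIs in macrophages past neither cut.

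Among the G2/M members, 11 were highest in macrophages past the G2/M cut only in both libraries: the cyclins Ccnb1 and Ccnb2, Birc5, Ube2c, Cdca8, Aurka, Plk1, Cenpe, Cenpf, Tpx2 and Hmmr. Ccnb1, which activates Cdk1 at mitotic entry, stood at 6.10 CPM in untreated cells past the S cut only, 84.9 past both, 181 past the G2/M cut only and 3.24 past neither (NAM: 4.81, 98.8, 190 and 4.42). Plk1, a kinase of centrosomes and spindle, had no UMI in the first of these classes in the untreated library and stood at 37.5 CPM past both and 78.8 past the G2/M cut only (NAM: 2.70, 39.9 and 67.1). Another 7 were highest past both cuts in both libraries, namely Mki67, Top2a, Cdk1, Pbk, Aurkb, Nusap1 and Stmn1. Top2a stood at 274 CPM past both and 218 past the G2/M cut only (NAM: 275 and 182), and Cdk1 at 246 and 187 (NAM: 247 and 182). Ccna2, the cyclin of S phase and G2, and Bub1, a spindle checkpoint kinase, were highest past both cuts in 1 library and past the G2/M cut only in the other.

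**Figure D3:**
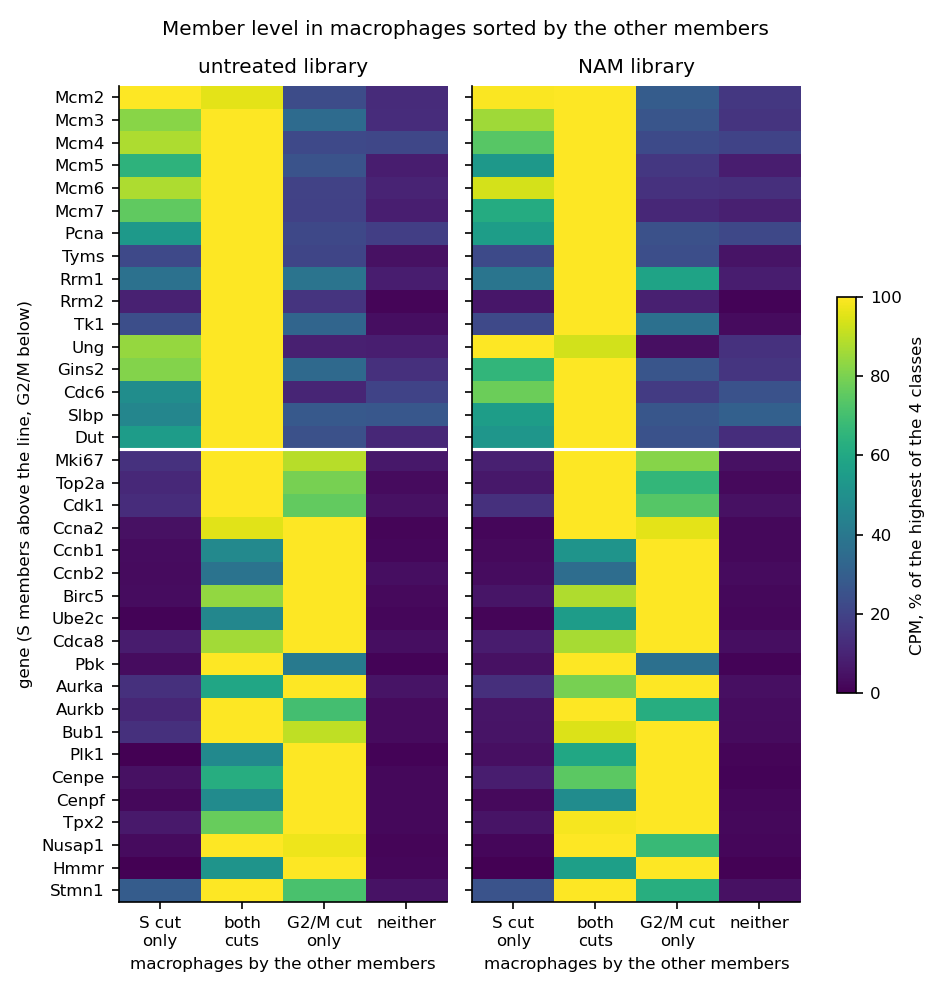
Level of each of the 36 members in 4 classes of macrophages sorted by the other 35 members, in CPM as percent of the member's highest class (colour), for the untreated (left) and NAM library (right). Of the 16 S members, 14 peak in cells past both cuts in both libraries, while Ccnb1, Ccnb2, Ube2c, Plk1 and Hmmr peak in cells past the G2/M cut only, in both libraries.

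Within macrophages, the S sum was lower in NAM. The S sum was 627 CPM untreated and 552 CPM NAM, a log2 ratio of -0.18 (-0.22 to -0.15). All 16 S members had a log2 ratio below 0, though the intervals of Mcm4, Rrm1, Gins2, Cdc6, Slbp and Dut include 0, with a median of -0.21 beside -0.04 over all 10733 genes with 50 or more UMIs. A log2 ratio of 0.32 in either direction was used as the threshold. Of the 16, 0 were past it upwards (5.89% of all genes) and 3 downwards (14.7% of all genes). That count, 3 of 16, is near the share of all genes.

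The 3 S members past the threshold were Mcm5, Mcm7 and Ung. Mcm5 stood at 35.7 CPM untreated and 25.4 NAM (log2 -0.49, -0.66 to -0.33). Mcm7, another helicase subunit, stood at 27.9 and 22.2 CPM (-0.33, -0.51 to -0.15). Ung, a glycosylase that removes uracil from DNA, stood at 10.3 and 7.74 CPM (-0.41, -0.71 to -0.11). The genes of the helicase and its loading (6 Mcm genes, Gins2 and Cdc6) summed to 212 and 178 CPM (-0.25, -0.32 to -0.19), and the sliding clamp Pcna stood at 90.3 and 76.5 CPM (-0.24, -0.34 to -0.14). The genes of deoxynucleotide supply (Tyms, Rrm1, Rrm2, Tk1 and the dUTPase Dut) summed to 223 and 199 CPM (-0.16, -0.22 to -0.10). Slbp differed least, at 92.0 and 90.7 CPM (-0.02, -0.11 to 0.07), so that helicase and clamp genes lay below and Slbp near the untreated level.

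The G2/M sum of macrophages was also lower in NAM, at 992 against 889 CPM (-0.16, -0.19 to -0.13). Of the 20 members, 17 had a log2 ratio below 0, with a median of -0.15. Of the 20, 0 were past the threshold upwards and 2, Mki67 and Nusap1, downwards, against 5.89% and 14.7% of all genes, so that the count is not above the background. Mki67, the proliferation antigen that coats mitotic chromosomes, stood at 39.3 CPM untreated and 29.5 NAM (-0.41, -0.57 to -0.26). Nusap1, a spindle-associated protein, stood at 35.5 and 27.9 CPM (-0.35, -0.50 to -0.19), and Top2a, just inside the threshold, at 61.7 and 49.9 CPM (-0.31, -0.42 to -0.19). These were the 3 lowest ratios among the 20. Cdk1 and the cyclins Ccna2, Ccnb1 and Ccnb2 summed to 167 and 155 CPM (-0.11, -0.18 to -0.04), and the chromosomal passenger genes Birc5, Cdca8 and Aurkb to 185 and 172 CPM (-0.10, -0.17 to -0.04). Ube2c differed little, at 89.4 and 88.4 CPM (-0.02, -0.11 to 0.08), and Ccnb1 (29.5 and 30.1 CPM), Bub1 (8.65 and 9.02 CPM) and Cenpf (18.64 and 18.68 CPM) were the 3 members above 0.

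**Figure D4:**
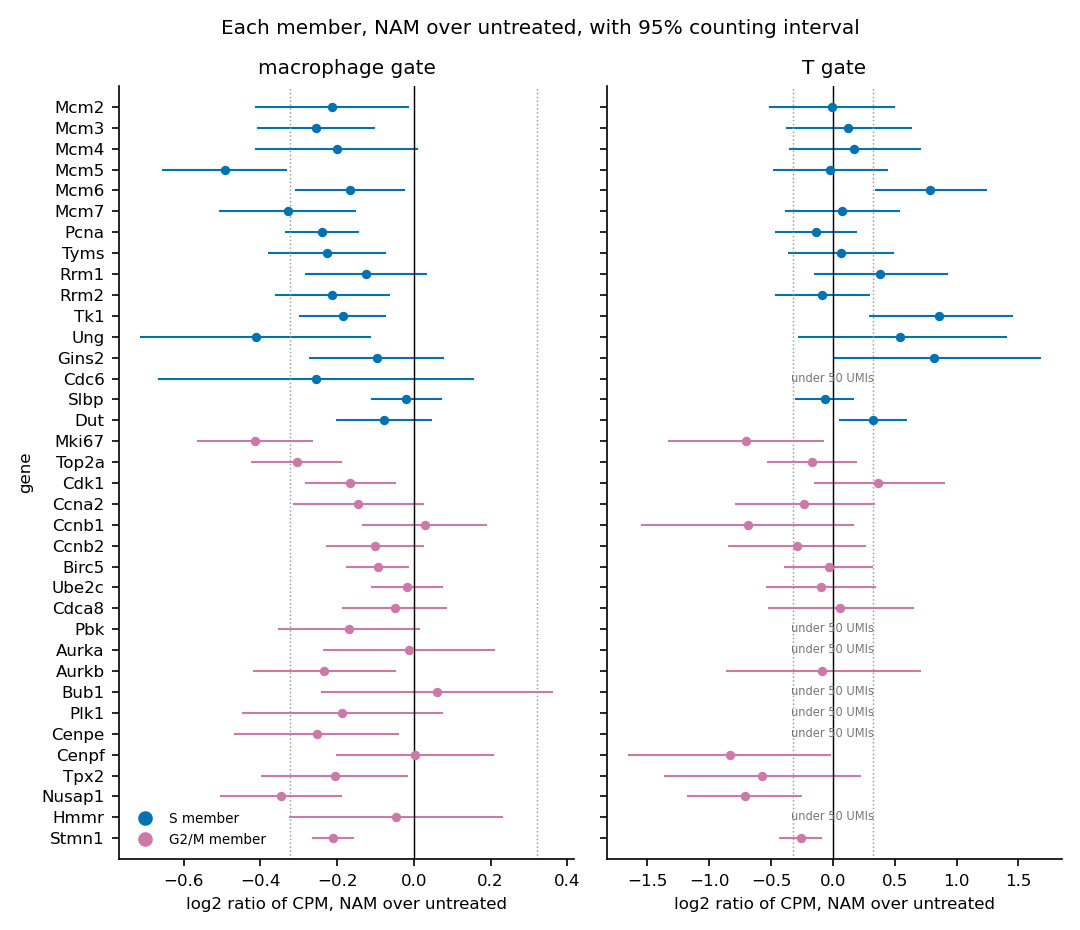
Log2 ratio of CPM, NAM over untreated (x axis), of each member (y axis) in the macrophage gate (left) and the T gate (right). Points are ratios of 1 library to 1 library, bars 95% counting intervals and dotted lines the threshold of 0.32; members with under 50 UMIs are marked. All S members lie left of 0 in macrophages, and in T cells Mcm6 and Tk1 lie right of 0 and Nusap1 and Mki67 left of 0.

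The share of macrophages past a cut differed less clearly than the sums. The log2 ratio of shares, NAM over untreated, was -0.20 (-0.40 to 0.0017) for the S cut and -0.19 (-0.40 to 0.02) for the G2/M cut, and both intervals include 0. Without thinning, the S shares of 45.8% and 45.9% gave a log2 ratio of 0.0021. Without the 2.5% of cells with most UMIs in each library, the G2/M sum of macrophages differed more, at a log2 ratio of -0.28.

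Other genes of the same processes, which are no members, passed the threshold only downwards in macrophages, where they passed it at all. Of 32 other replication genes, 0 were past the threshold upwards (5.89% of all genes) and 13 downwards (14.7% of all genes), with a median of -0.22. The DNA polymerase alpha subunits were among the 13, with Pola2 at 19.6 and 11.5 CPM (-0.77, -1.002 to -0.54) and Pola1 at 8.90 and 5.13 CPM (-0.79, -1.15 to -0.45). Uhrf1, which carries DNA methylation through replication, stood at 15.4 and 10.3 CPM (-0.59, -0.85 to -0.34), and Lig1, the ligase of lagging-strand fragments, at 32.1 and 23.8 CPM (-0.43, -0.60 to -0.26). The 4 replication genes with most UMIs lay inside the threshold and 3 of them above 0: Rfc2 (62.9 and 64.6 CPM, 0.04), Asf1b (42.1 and 37.1 CPM, -0.18), the flap endonuclease Fen1 (35.5 and 36.9 CPM, 0.05) and Gins4 (30.8 and 33.5 CPM, 0.12). Of 39 other mitosis genes, 0 were past the threshold upwards and 10 downwards, beside the same shares of all genes, with a median of -0.19, among them Racgap1, a cytokinesis protein, at 33.1 and 25.4 CPM (-0.38, -0.55 to -0.22). Among those with most UMIs, H2afz (1073 and 1027 CPM, -0.06), Hmgb2 (370 and 347 CPM, -0.09) and Cks2 (94.7 and 92.8 CPM, -0.03) lay inside the threshold, and so did Ube2s, on the higher side (263 and 308 CPM, 0.23). Of 13 G1 cyclin and kinase genes, only Cdk6 was past the threshold (54.1 and 40.1 CPM, -0.43, -0.56 to -0.30), and the D cyclins Ccnd1 (115 and 113 CPM, -0.03) and Ccnd2 (71.4 and 72.8 CPM, 0.03) were near 0. Of the 5 inhibitor genes, Cdkn1b (21.1 and 14.3 CPM, -0.57) and Btg1 (654 and 503 CPM, -0.38) were lower, and Cdkn1a stood at 491 and 557 CPM (0.18).

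Macrophages past the G2/M cut differed from those past neither cut in genes outside the 36 in both libraries, though not always by the same size. Among 9349 non-member genes with 50 or more UMIs in each library, 22.1% were past the threshold upwards in both libraries and 10.5% downwards in both, with medians of 0.08 and 0.12 on the log2 scale. All 30 other replication genes and all 38 other mitosis genes that reached 50 UMIs were past it upwards in both, with medians of 2.77 and 2.60 and of 4.72 and 4.79. The 50 UMIs were counted over both classes of cells. Some of these genes reached them only through cells past the cut, as Kif11 did in the untreated library (129 UMIs against 5). These counts and medians are therefore a description only. Hmgb2, a chromatin protein, stood at 1114 against 149 CPM in the untreated and 1114 against 156 CPM in the NAM library. Of the 5 inhibitors, Cdkn2c (115 against 13.9 CPM; NAM 102 against 13.4) and Cdkn2d (87.5 against 16.2; NAM 93.6 against 18.0) were higher in cells past the cut, and Btg1 was lower (493 against 716; NAM 398 against 535). Of the 13 G1 genes, 7 were past the threshold upwards in both libraries and 0 downwards in both, with medians of 0.48 and 0.45. The kinase Cdk4 was among the 7 (188 against 92.3 CPM, and 209 against 99.1 in NAM).

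Most genes of macrophage state were lower in cells past the cut. Of 14 such genes compared, 10 were past the threshold downwards in both libraries (10.5% of all genes) and 0 upwards in both (22.1% of all genes). The antigen presentation genes H2-Aa (3269 against 7290 CPM; NAM 4511 against 9432) and Cd74 (10062 against 21936; NAM 13293 against 27624) were among the 10, the second value in each pair being that of cells past neither cut. Apoe, which carries lipid, stood at 9344 against 18940 CPM (NAM 7559 against 17758) and the elastase Mmp12 at 67.2 against 245 CPM (NAM 94.6 against 432). Il1b, the cytokine interleukin 1 beta, stood at 1259 against 2157 CPM (NAM 1217 against 2207). Mertk is among the 10, though its intervals include 0 in both libraries. Spp1 (log2 0.05 and 0.23) and Ccr2 (0.15 and 0.05) lay above 0 in both libraries. Mrc1 (-0.32 and -0.28) and Csf1r (-0.30 and -0.33) lay below 0 but were not past the threshold in both. Cells past a cut also held more UMIs, as given above, and the part of depth in these values was not tested.

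**Figure D5:**
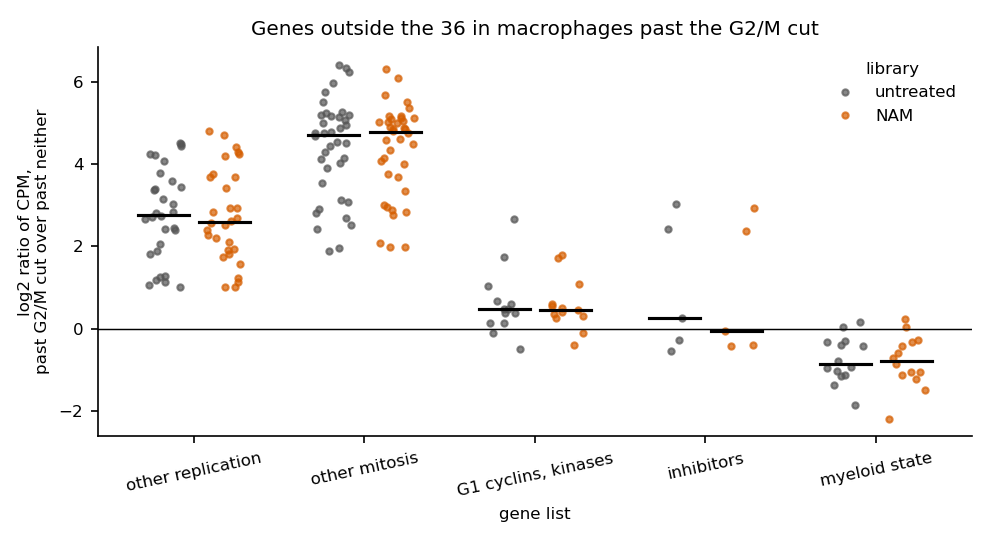
Log2 ratio of CPM in macrophages past the G2/M cut over macrophages past neither cut (y axis) for genes of 5 lists outside the 36 members (x axis), by library (colour). Each point is a gene with 50 or more UMIs in each library and each bar the median of a list. All points of the replication and mitosis lists lie above 0 and most of the myeloid state list below 0. The 50 UMIs are counted over both classes, and some replication and mitosis genes reach them only through cells past the cut.

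In T cells, the S sum was higher and the G2/M sum lower in NAM, while single members went both ways. The S sum stood at 1290 CPM untreated and 1438 NAM (0.16, 0.05 to 0.26) and the G2/M sum at 1395 and 1175 CPM (-0.25, -0.35 to -0.14). Without the 5 cells with most member UMIs in each library the S ratio was 0.16 and the G2/M ratio -0.08 (-0.21 to 0.05), and weighting every cell equally gave 0.0014 for S. Gates on the presence of 1 marker alone, which left 50 and 69 T cells, turned the G2/M ratio to 1.27. Haemoglobin RNA, at 3500 CPM in NAM T cells, exceeded 1% of UMIs in 1 cell, and leaving that cell out gave 0.17 for S and -0.24 for G2/M. Of 15 S members with 50 or more UMIs, 6 were past the threshold upwards (20.0% of 4853 genes) and 0 downwards (18.2%). The 6 were Mcm6, Tk1, Gins2, Ung, Rrm1 and Dut, and the intervals of Ung (-0.28 to 1.41) and Rrm1 (-0.15 to 0.93) include 0.

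Mcm6 stood at 62.7 CPM in untreated and 108 CPM in NAM T cells (0.79, 0.34 to 1.24), and Tk1 at 38.3 and 69.4 CPM (0.86, 0.29 to 1.45). Gins2, a subunit of the helicase complex, stood at 19.1 and 33.6 CPM (0.81, 0.0030 to 1.69), and Dut, which keeps uracil out of DNA, at 182 and 228 CPM (0.32, 0.05 to 0.60). The other helicase subunits Mcm2 (60.6 and 60.1 CPM), Mcm5 (71.2 and 70.2 CPM) and Mcm7 (70.2 and 73.7 CPM) differed little, so that the higher S sum was not shared by all helicase genes. Of 14 G2/M members, 1 was past the threshold upwards, Cdk1 at 51.0 and 65.85 CPM (0.37, -0.15 to 0.90), and 5 downwards, Mki67, Ccnb1, Cenpf, Tpx2 and Nusap1, against 20.0% and 18.2% of all genes. Nusap1 stood at 89.3 and 54.4 CPM (-0.71, -1.18 to -0.25) and Mki67 at 49.96 and 30.8 CPM (-0.70, -1.33 to -0.07). The intervals of Ccnb1 (-1.55 to 0.17) and Tpx2 (-1.36 to 0.22) include 0. The kinetochore and spindle genes (Cenpe, Cenpf, Tpx2, Nusap1 and Hmmr) summed to 189 and 113 CPM (-0.74, -1.06 to -0.43), while Cdk1 and the cyclins summed to 186 and 173 CPM (-0.11, -0.40 to 0.18). Without the 5 cells with most member UMIs, Ccnb1, Cenpf, Tpx2 and Nusap1 turned to ratios of 0.97, 0.38, 0.20 and 0.17, and Tk1 stood at 0.26.

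The shares of T cells past the cuts had log2 ratios of 0.19 (-0.18 to 0.56) for S and -0.18 (-0.79 to 0.44) for G2/M. With a Cd8a UMI, 35.4% of 82 untreated (25.1 to 46.7) and 44.7% of 132 NAM cells (36.04 to 53.6) passed the S cut, and with a Foxp3 UMI, which marks regulatory T cells, 37.1% of 35 (21.5 to 55.1) and 45.9% of 37 (29.5 to 63.1). In T cells with neither a Foxp3 nor a Cd8a UMI, 34.7% of 49 (21.7 to 49.6) and 28.8% of 66 (18.3 to 41.3) passed it. All of these intervals overlap. The S sums differed more, at 1484 and 2106 CPM in Foxp3 cells (0.50, 0.30 to 0.71), 1351 and 1446 CPM in Cd8a cells (0.10, -0.05 to 0.25) and 1038 and 1056 CPM in cells with neither (0.03, -0.19 to 0.24), and the difference between subsets was not tested. The G2/M cut was passed by 20% (8.44 to 36.9) and 29.7% (15.9 to 47.0) of Foxp3 cells, while their G2/M sum was lower in NAM (1651 and 1310 CPM, -0.33, -0.55 to -0.11), so that no order is read from it. Among genes outside the members, 18 other replication genes had a median of 0.03, with 1 past the threshold upwards (Orc6) and 2 downwards (Prim1 and Lig1), and 18 other mitosis genes a median of -0.18, with 1 upwards (Incenp) and 6 downwards, against 20.0% of all genes upwards and 18.2% downwards. The inhibitors Cdkn1b (60.6 and 22.2 CPM, -1.45, -2.13 to -0.79) and Btg1 (1538 and 1009 CPM, -0.61, -0.71 to -0.50) were lower in NAM T cells, and so were Cdkn2c and Cdkn2d, 4 of 5 in all, beside the same 18.2% of all genes. Of the G1 genes, Cdk6 stood at 223 and 89.5 CPM (-1.32, -1.65 to -0.99) and Cdk4 at 127 and 190 CPM (0.58, 0.27 to 0.91).

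The remaining gates held 28 to 203 cells per library, and most members fell under 50 UMIs there. In monocytes, only Slbp, Pcna and Stmn1 reached 50 UMIs. Slbp stood at 142 CPM untreated and 127 NAM (-0.16, -0.49 to 0.16), Pcna at 70.0 and 50.2 CPM (-0.48, -0.98 to 0.02) and Stmn1, which destabilises microtubules, at 70.0 and 47.6 CPM (-0.55, -1.07 to -0.05). Of 2 S members, 1 was thus past the threshold downwards and 0 upwards, and the 1 G2/M member was lower (background 21.2% lower and 14.8% higher of 4282 genes). The S sum had a log2 ratio of -0.37 (-0.57 to -0.17) and the G2/M sum of -0.68 (-0.97 to -0.39). Haemoglobin RNA stood at 4398 CPM in NAM and 18.9 CPM in untreated monocytes, and without the 1 cell rich in it the ratios were -0.35 and -0.67. Without the 2.5% of cells with most UMIs, the S ratio turned to 0.03 and the G2/M ratio was -0.28. Without the 5 cells with most member UMIs, a trimming that moves ratios by construction, the G2/M ratio was 0.12 and that of Stmn1 0.59.

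In dendritic cells, the S sum was higher in NAM (0.59, 0.35 to 0.82) and the G2/M sum lower (-0.39, -0.54 to -0.24). Of 6 S members, 4 were past the threshold upwards (27.0% of 2137 genes) and 0 downwards (16.9%), namely Rrm2 (58.5 and 97.9 CPM, 0.74), Tk1 (42.7 and 72.9 CPM, 0.77), Slbp (72.0 and 131 CPM, 0.87) and Dut (60.7 and 93.7 CPM, 0.63). The intervals of Tk1 (-0.08 to 1.66) and Dut (-0.09 to 1.37) include 0. Of 10 G2/M members, 0 were upwards and 6 downwards, Top2a, Cdk1, Ccnb1, Ube2c, Cdca8 and Nusap1, beside the same shares of all genes. The intervals of Top2a (-1.12 to 0.11), Cdk1 (-1.33 to 0.08), Ccnb1 (-1.28 to 0.23) and Nusap1 (-1.27 to 0.28) include 0. Ube2c stood at 373 and 160 CPM (-1.22, -1.63 to -0.82) and Cdca8, of the chromosomal passenger complex, at 115 and 54.2 CPM (-1.08, -1.82 to -0.37). The share past the G2/M cut was higher in NAM where the sum was lower, so that no order is read from it. Without the 5 cells with most member UMIs, Ccnb1 and Cdca8 turned to 0.54 and 0.98 while Cdk1 and Ube2c stood at -1.57 and -2.78, and without the 2.5% deepest cells the G2/M sum turned to 0.08 and the S sum was 0.14. Gates on thinned cells gave 0.23 for S and -0.05 for G2/M, and gates on the presence of 1 marker alone, which left 3 and 7 cells, turned G2/M to 5.26. At a threshold of 1.5 fold, 3 of 10 G2/M members were lower in place of 6.

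NK cells were higher in NAM for both sums, at log2 ratios of 0.44 (0.23 to 0.66) for S and 0.38 (0.18 to 0.58) for G2/M. Of 5 S members, 3 were past the threshold upwards (18.3% of 1866 genes) and 0 downwards (24.4%): Slbp at 190 and 381 CPM (1.00, 0.55 to 1.45), Rrm2 at 60.1 and 115 CPM (0.94, 0.09 to 1.77) and Dut at 134 and 180 CPM (0.43, -0.20 to 1.03). Of 4 G2/M members, 2 were upwards, Stmn1 at 412 and 702 CPM (0.77, 0.45 to 1.08) and Birc5, the survivin of the chromosomal passenger complex, at 100.1 and 150 CPM (0.59, -0.12 to 1.27). The G2/M share was lower in NAM, at 4 of 37 cells against 12 of 71, which goes against the sum. The 5 cells with most G2/M UMIs held 90.7% of the NAM sum, against 60.4% of the untreated sum. Without these 5 of 71 untreated and 5 of 37 NAM cells, an unequal trimming, the G2/M ratio was -1.48 and the ratios of Rrm2 and Stmn1 were -1.63 and -0.56. With the C1qa bound at 10 per 10000 UMIs, which added 12 untreated and 3 NAM cells, the NK ratios were 0.17 for S and 0.07 for G2/M. Gates on the presence of 1 marker alone, which left 15 and 6 NK cells, turned the ratios to -0.79 and -1.69, gates on thinned cells gave 0.0044 for S, and G2/M without Stmn1, Slbp, Dut and Ung gave 0.12. The direction in NK cells thus depended on the gate.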

How the data were processed

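Counts of UMIs per gene and cell were used as deposited, for 1 untreated and 1 NAM library. Per the labels and the study's methods, the authors made these counts from droplet 3′ libraries with Cell Ranger on mm10 and filtered cells on genes, UMIs and mitochondrial share. The annotation version is not given in the sources used here. The members and lists were chosen with earlier results of these data known. Scripts used Python 3.11.15, NumPy 2.4.6, SciPy 1.17.1 and pandas 2.3.3, and were tested on simulated data.

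Gates needed C1qa at 5 or more per 10000 UMIs (macrophage), Ly6c2 at 3 or more (monocyte), or 1 UMI of Xcr1 (dendritic), Cd3e (T) or Ncr1 (NK). The first 2 gates excluded each other and any UMI of the last 3 markers, and the last 3 excluded each other and C1qa at its bound, but not Ly6c2. Counts were summed per gate and library and scaled to CPM. CPM have exact Poisson, ratios exact conditional binomial, shares Clopper-Pearson and share ratios Katz intervals (95%). Log2 ratios of single genes were read from 50 UMIs over both libraries. Cells were thinned to 3000 UMIs with a fixed seed for shares, and all cells reached that number. Doublets were not removed. Named genes were the 36 members and, from other lists, mainly the 4 with most UMIs in macrophages and some of those past the threshold. Alternatives changed scaling, gates, cells, members, cuts and minimum counts. The number of columns that matched no sample was 0. Of the myeloid state list, Ly6c2 was left out since the gate bounds it, and 1 gene, with a split of macrophages that used it, is not reported here.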

Additional observations from a re-analysis of the deposited data

Results flagged for a closer look

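The gates differed in the direction of the ratio of NAM to untreated, in 1 library each, and the difference between gates was not tested. For the S sum, the log2 ratio was above 0 in dendritic cells (0.59), T cells (0.16) and NK cells (0.44) and below 0 in macrophages (-0.18) and monocytes (-0.37). For the G2/M sum, it was above 0 in NK cells (0.38) and below 0 in macrophages (-0.16), monocytes (-0.68), dendritic cells (-0.39) and T cells (-0.25). These directions rest on the gates and cells used. Under at least 1 alternative, the G2/M ratio turned in dendritic cells (0.0845 and 5.26), T cells (1.27) and NK cells (-1.69). The S ratio turned in monocytes (0.034) and NK cells (-0.79). Without the 5 cells with most member UMIs, the G2/M ratio was 0.12 in monocytes and -1.48 in NK cells. That trimming moves ratios by construction, so that no direction is read from these 2 values. In macrophages both ratios stayed below 0 under every alternative tried.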

How the results depend on the processing

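Of the alternatives to the S sums, 43 kept direction and size, 10 moved the value and 2 turned it, against 37, 12 and 6 for the G2/M sums, while 47 S share ratios kept and 1 moved, and 47 G2/M share ratios kept. In macrophages the S ratio stayed below 0 in all, moving to -0.11 (gates on presence of a marker), -0.23 (without Stmn1, Slbp, Dut and Ung) and -0.14 (equal weight per cell), and the G2/M ratio to -0.13 (median-of-ratios scaling), -0.12 (presence) and -0.28 (without the 2.5% deepest cells), while the unthinned S share ratio was 0.0021. Gates on presence gave 1.63 (S) and 5.26 (G2/M) in dendritic cells, 0.29 and 1.27 in T cells and -0.79 and -1.69 in NK cells, and left 3 and 7 dendritic and 15 and 6 NK cells. Gates on thinned cells gave -0.17 for G2/M in monocytes, 0.23 and -0.051 in dendritic cells, -0.38 for G2/M in T cells and 0.0044 for S in NK cells. Without the deepest cells, monocytes stood at 0.034 (S) and -0.28 (G2/M) and dendritic cells at 0.14 and 0.0845. Without the 5 cells with most member UMIs, a part that differs between libraries and was chosen by the UMIs compared, G2/M was 0.12 in monocytes, -0.081 in T cells and -1.48 in NK cells, Stmn1 was 0.59 in monocytes and -0.56 in NK cells, Rrm2 was -1.63 in NK cells, Ccnb1 and Cdca8 were 0.54 and 0.98 in dendritic cells, and Ccnb1, Cenpf, Tpx2 and Nusap1 were 0.97, 0.38, 0.20 and 0.17 in T cells. Equal weight per cell gave -0.24 for G2/M in monocytes, 0.0014 for S in T cells and 0.054 for G2/M in NK cells. In NK cells a C1qa bound of 10 gave 0.17 and 0.066, and G2/M without Stmn1, Slbp, Dut and Ung was 0.12. The numbers of members past the threshold also moved. At a threshold of 1.5 fold, macrophages had 0 lower S and 0 lower G2/M members in place of 3 and 2 (5.22% of all genes), T cells 3 of 15 higher S members in place of 6 (6.86%) and dendritic cells 3 of 10 lower G2/M members in place of 6 (7.91%); median-of-ratios scaling left 1 lower G2/M member in macrophages. With a minimum of 20 UMIs there were 9 of 13 lower S and 4 of 5 lower G2/M members in monocytes (25% of all genes), 8 of 13 higher S members in dendritic cells (29.0%), 8 of 19 lower G2/M members in T cells (23.1%), and 5 of 13 higher S and 5 of 12 higher G2/M members in NK cells (23.1%). At that minimum, NK cells also had 2 lower S and 3 lower G2/M members (31.1% of all genes). Dendritic cells had 1 lower S member (23.2%) and T cells 1 higher G2/M member (23.3%). The causes of such changes were not tested. Equal weight per cell, leaving out haemoglobin-rich cells and a new thinning seed were chosen after seeing the data. Shares under presence gates could not be computed for G2/M in monocytes or for dendritic and NK cells. No paired analysis was possible because each group is 1 library, and no library could be left out.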
